A study of Drosophila melanogaster with 55 samples.

Results

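The telomere retrotransposons of Drosophila melanogaster, HeT-A, TART and TAHRE, were followed as RNA in single early embryos. In the deposited tables of repeat counts they stand under 4 names, HETA, TART, TART_B1 and TAHRE, which were taken by exact match from 9263 repeat names. Of those names, 9028 were simple repeats, 6 were low-complexity repeats, 4 were ribosomal RNA and 225 were other repeats, mostly transposable elements. All 4 names had enough reads to be tested in every comparison.

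Drosophila lacks telomerase, and its chromosome ends are kept up by these elements, which are non-LTR retrotransposons that copy themselves onto the ends in head-to-tail arrays. HeT-A is the most frequent element of the arrays in most stocks and encodes a Gag protein that targets telomeres, but no reverse transcriptase. TART encodes both Gag and reverse transcriptase, and TART_B1 is a subfamily of TART with an entry of its own. TAHRE combines an untranslated region and Gag akin to those of HeT-A with a reverse transcriptase akin to that of TART. In the female germline the elements are silenced through small piRNAs and heterochromatin, in which SetDB1, also called eggless, methylates histone H3 at lysine 9. Gcn5 is a histone acetyltransferase, and lysine 14 of histone H3 is among its targets.

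The RNA libraries were made from total RNA of a single embryo at stage 5, the cellularising blastoderm, in which zygotic transcription takes over from maternal RNA. There were 4 groups of 3 libraries. The embryos of the Gcn5 knockdown and of the control knockdown of w, the white eye colour gene, both carried GFP-SetDB1 and the germline driver nos-Gal4, and differed in the RNAi construct. The embryos of the other pair carried SetDB1 F578A, in which a phenylalanine of SetDB1 is replaced by alanine, or SetDB1 WT. Per the labels, the F578A stock used for RNA carried the CyO balancer and the WT stock did not, so the effects of the mutation and of the balancer cannot be told apart. The other samples were 29 ChIP-seq peak lists and 14 inputs, for 55 samples in all. Of the peak lists, 20 came from the knockdown and SetDB1 embryos, where the F578A and WT stocks both carried CyO, and 9 from w1118 embryos, a white-mutant laboratory strain, at stages 4, 5 and 6 with 1 list for each antibody and stage. The titles of the knockdown lists give stage 5, and those of the F578A and WT lists give no stage. The driver nos-Gal4 acts in the germline of the mother. Total RNA of an embryo mixes RNA loaded into the egg with RNA made by the embryo, so these cannot be told apart in any of the libraries. Neither can fewer cells of a type and less RNA per cell.

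The libraries held 1923426 to 3209030 counts over all repeat names. Simple repeats took 77.7 to 85.8% of them, ribosomal RNA 0.814 to 9.17%, and the 225 other repeats 2.62 to 3.20% in the knockdown experiment and 3.35 to 6.00% in the SetDB1 experiment. Levels below are in CPM, the count of a name relative to the library's repeat counts after TMM scaling (a correction for composition), and are therefore not relative to all RNA. No gene was counted, so the level of Gcn5, w or SetDB1 could not be checked. Nothing in the labels says whether the embryos of a group came from separate crosses, so the spread between libraries may leave out variation between crosses. Replicates of a group differed well beyond counting error, with a chi-square per degree of freedom of 10.03 to 99.15.

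TART was the most abundant of the 4 elements in every library. Its level was 1088, 1095 and 1155 CPM with w knocked down, and 844.8, 913.1 and 747.8 CPM with Gcn5 knocked down. It reached 1504, 2140 and 1803 CPM in SetDB1 WT embryos, and 1297, 1563 and 1876 CPM in SetDB1 F578A embryos. Every Gcn5 library lay below every w library, and every library of the SetDB1 experiment lay above both, while F578A and WT overlapped. These values rest on 1490 to 6142 counts per library. Among all names tested, 5.18% were likewise lower without overlap in Gcn5 than in w, and 21% higher in WT than in w. This was not counted over all names for F578A against either knockdown, nor for WT against Gcn5.

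HETA, the name for HeT-A, was several-fold lower in CPM and had another order of groups. The w libraries had 96.9, 60.3 and 44.4 CPM, and the Gcn5 libraries 105.4, 154.2 and 156.6 CPM. In SetDB1 WT it reached 109.1, 160.3 and 116.5 CPM, and in F578A 128.9, 192.5 and 238 CPM. The w knockdown was the lowest group and overlapped with none of the others. Its replicate 1 was close to the lowest library of the Gcn5 knockdown, and F578A replicate 1 lay within the range of WT. Among all names tested, 5.32% were higher without overlap in Gcn5 than in w, and 21% in WT than in w. For F578A against w this was not counted. The smallest count of HETA was 108, in w replicate 3, with an exact Poisson 95% interval of 88.59 to 130.4 that covers counting error only.

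TAHRE had 41.2, 47.8 and 48.5 CPM in the w libraries and 42.6, 55.5 and 92.4 CPM in the Gcn5 libraries. In SetDB1 WT it reached 65.2, 99.0 and 75.2 CPM, and in F578A 77.9, 136.2 and 125.6 CPM. The w libraries were close together, with a coefficient of variation of 8.85%, against 40.7% in the Gcn5 knockdown, where replicate 3 alone lay far above them. The counts of TAHRE ran down to 92, in w replicate 2, the lowest count of any of the 4 names.

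TART_B1 varied more between embryos of a group than TART did. The w libraries had 109.4, 335.4 and 290.4 CPM and the Gcn5 libraries 74.2, 112.7 and 129.5 CPM. In SetDB1 WT the values were 320.6, 180.1 and 255.8 CPM, and in F578A 291.3, 224.3 and 177.3 CPM. The Gcn5 libraries were low, and replicate 1 of the w control fell among them. The coefficient of variation was 48.8% in the w knockdown for TART_B1 and 3.31% for TART in the same libraries.

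**Figure D1:**
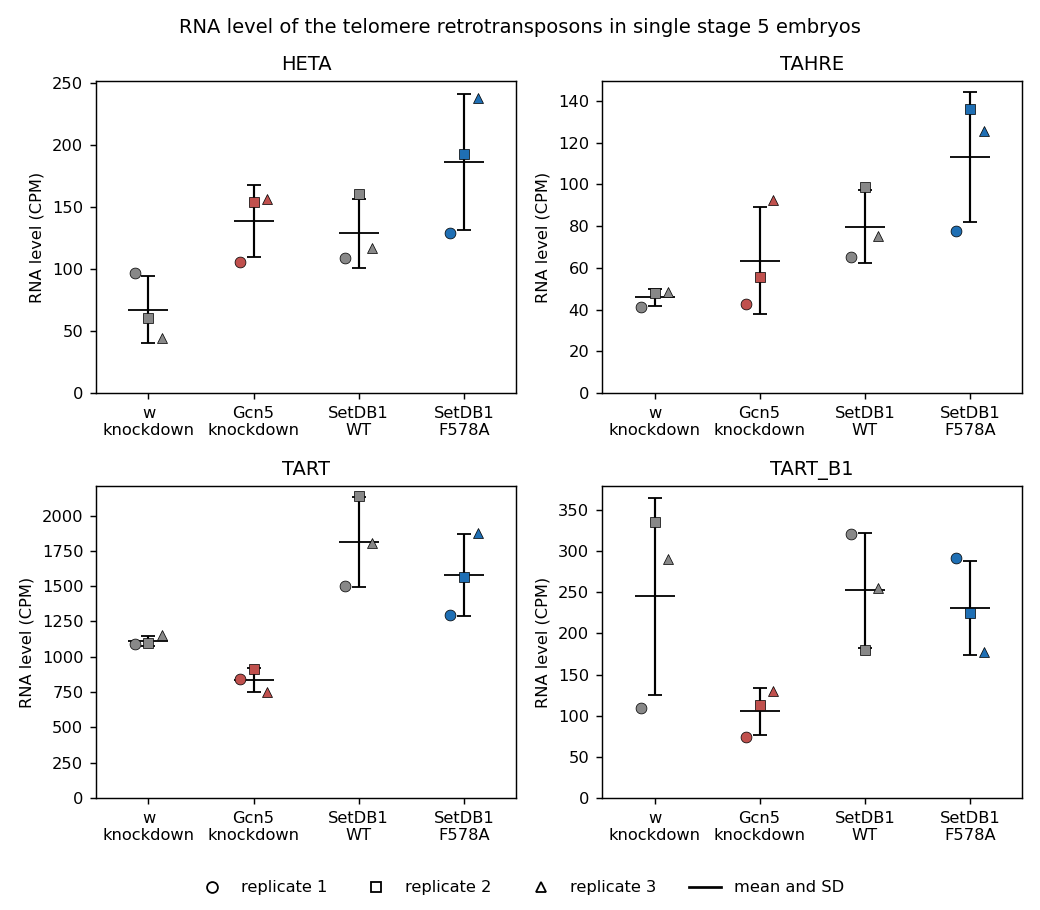
RNA level (CPM, linear axes from 0) of HETA, TAHRE, TART and TART_B1 in the 12 single-embryo libraries, with the mean and SD of each group of 3 and the replicate number as the symbol. For HETA the w knockdown lies lowest, at 44.4 to 96.9 CPM, for TART the Gcn5 knockdown lies lowest, at 747.8 to 913.1 CPM, and replicate 1 of the w knockdown stands apart from the other w libraries for HETA and TART_B1.

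Levels of different elements were compared per length, as CPM per kilobase of the summed annotated copies. These copies came to 274087 bases for HETA, 274252 for TART, 127605 for TAHRE and 69289 for TART_B1. Which copies are transcribed was not determined, so these values compare the names and not single transcripts. On this scale TART had means of 3.05 for Gcn5, 4.06 for w, 5.76 for F578A and 6.62 for WT. TART_B1 had 1.52, 3.54, 3.33 and 3.64 in the same order, HETA 0.506, 0.245, 0.680 and 0.469, and TAHRE 0.497, 0.359, 0.888 and 0.625. TART was thus the highest of the 4 by group mean in each group also per length, and HETA and TAHRE were the lowest. In w replicate 2 TART_B1 exceeded TART on this scale, at 4.84 against 3.99. By total CPM, not per length, TART ranked between 4 and 8 among the 225 other repeats in the single libraries, TART_B1 between 14 and 46, HETA between 27 and 86 and TAHRE between 45 and 86.

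The order of the groups differed by element. By mean CPM, HETA ran from F578A (186.5 ± 54.8, SD, n = 3) through the Gcn5 knockdown (138.7 ± 28.9) and WT (128.6 ± 27.7) to the w knockdown (67.2 ± 26.9), and among these neighbours only WT and w did not overlap. TAHRE ran from F578A (113.2 ± 31.1) through WT (79.8 ± 17.4) and the Gcn5 knockdown (63.5 ± 25.8) to the w knockdown (45.9 ± 4.06), with each neighbour overlapping the next. TART ran from WT (1816 ± 318.2) through F578A (1579 ± 289.8) and the w knockdown (1113 ± 36.8) to the Gcn5 knockdown (835.2 ± 83.1), and only WT and F578A overlapped. TART_B1 ran from WT (252.2 ± 70.3) through the w knockdown (245.1 ± 119.6) and F578A (231.0 ± 57.3) to the Gcn5 knockdown (105.5 ± 28.4). For TART_B1 the upper 3 groups overlapped one another, and F578A lay above the Gcn5 knockdown without overlap. Groups without overlap in either direction were found for 10.5% of all names between Gcn5 and w, and for 41.5% between WT and w. For F578A against either knockdown this was not counted over all names.

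Together the 4 names took a small share of the counts. The share separated the knockdown groups from each other and from the SetDB1 experiment, but not WT from F578A. It was 0.1151, 0.1068 and 0.1042% of all repeat counts in the Gcn5 knockdown and 0.1381, 0.1538 and 0.1592% in the w knockdown. It was 0.2177, 0.2307 and 0.2249% in WT and 0.2005, 0.2185 and 0.2332% in F578A. Every Gcn5 library lay below every w library, both lay below the SetDB1 experiment, and WT and F578A overlapped. Taken over the counts of the 225 other repeats alone, the group means were 4.04 ± 0.264%, 5.11 ± 0.144%, 5.68 ± 1.15% and 4.49 ± 1.24% (SD, n = 3) for Gcn5, w, WT and F578A. On that denominator the SetDB1 experiment no longer lay above the w knockdown, and F578A overlapped with the other 3 groups. The shares are dominated by TART, which held 66.4 to 83.0% of the counts of the 4 names. By CPM, 5.18% of all names tested were lower without overlap in Gcn5 than in w, and 21% were higher in WT than in w. For F578A against either knockdown, and for WT against Gcn5, this was not counted over all names.

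The mix of elements within this small total also differed between groups. HETA made up 9.88, 12.5 and 13.9% of the counts of the 4 names in the Gcn5 knockdown and 7.26, 3.92 and 2.89% in the w knockdown. In F578A it made up 7.18, 9.10 and 9.85% and in WT 5.46, 6.21 and 5.18%. In both pairs the groups did not overlap, and HETA held the larger share in the Gcn5 knockdown and in F578A. Set against the same total, 19.1% of the 2142 names tested in the Gcn5 experiment and 8.02% of 2395 in the F578A experiment were also higher without overlap. These shares and the ratios that follow do not depend on how libraries were scaled, but a ratio moves with either of its parts.

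Set against TART in the same embryo, HETA had 12.5, 16.9 and 20.9 counts per 100 TART counts in the Gcn5 knockdown and 8.91, 5.51 and 3.85 in the w knockdown. In F578A it had 9.94, 12.3 and 12.7, and in WT 7.26, 7.49 and 6.46. TAHRE had 5.04 to 12.4 per 100 TART counts with Gcn5 knocked down (7.82 ± 3.96, SD, n = 3) and 3.78 to 4.37 with w knocked down (4.12 ± 0.301). It had 6.01 to 8.72 in F578A (7.14 ± 1.41) and 4.17 to 4.62 in WT (4.38 ± 0.231). Both elements were higher against TART, with no overlap of groups, in the Gcn5 knockdown than in w and in F578A than in WT. The same holds for 23% of the 2141 names tested besides TART in the Gcn5 experiment and for 10.4% of 2394 in the F578A experiment, so such a pattern was common in the Gcn5 experiment, where TART itself was low. These ratios are a description, and with 3 libraries against 3 they were given no test. Between WT and w the ratios of both elements to TART overlapped.

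TART_B1 against TART behaved differently. It had 8.78, 12.4 and 17.3 counts per 100 TART counts in the Gcn5 knockdown, 10.1, 30.6 and 25.1 in w, 22.5, 14.4 and 9.45 in F578A and 21.3, 8.42 and 14.2 in WT. These groups overlapped in each comparison. HETA per TART_B1 count was 1.42, 1.37 and 1.21 in the Gcn5 knockdown and 0.886, 0.180 and 0.153 in w, without overlap. So it was for 21.5% of the names tested when set against TART_B1, and the ratio joins the 2 names that lay farthest apart in this experiment. In F578A it was 0.443, 0.858 and 1.34 and in WT 0.340, 0.890 and 0.455, with overlap.

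**Figure D2:**
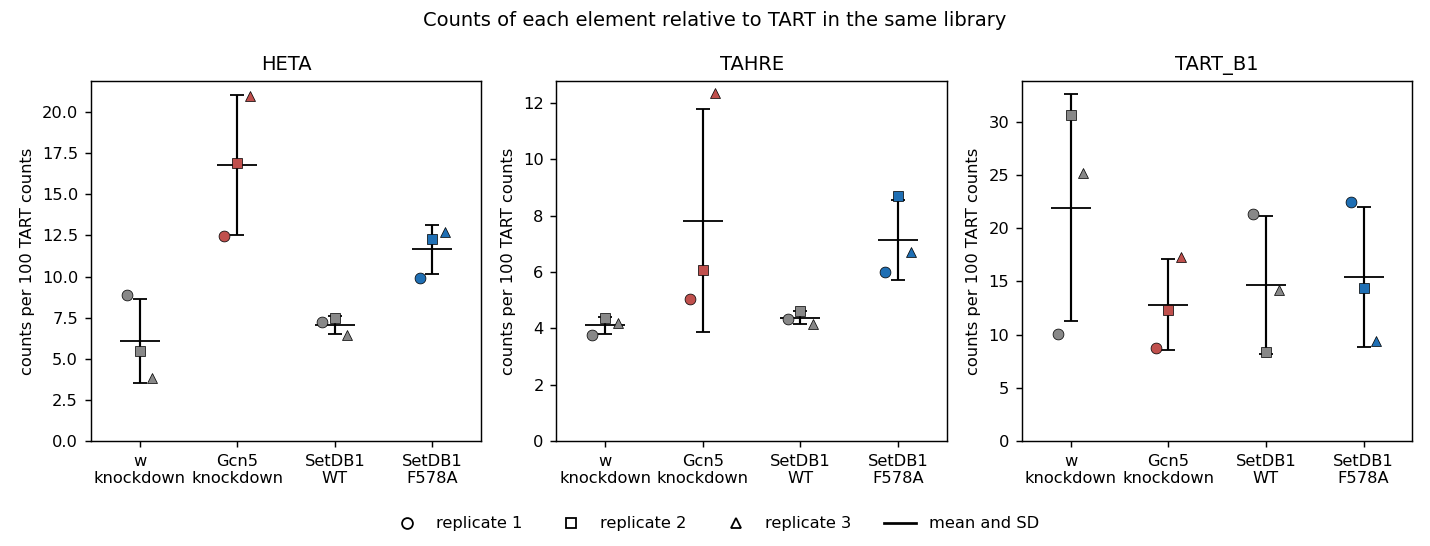
Counts of HETA, TAHRE and TART_B1 per 100 counts of TART in the same library, for the 12 libraries, with the mean and SD of each group of 3 and axes from 0. HETA and TAHRE lie higher in the Gcn5 knockdown than in w and in F578A than in WT without overlap (HETA at 12.5 to 20.9 against 3.85 to 8.91, and at 9.94 to 12.7 against 6.46 to 7.49), and TART_B1 overlaps in both pairs.

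The knockdown of Gcn5 was compared with that of w to ask how these RNAs differ when the acetyltransferase is depleted from the maternal germline. HETA was 2.05-fold the control level, TART_B1 was 0.424-fold, TART 0.741-fold and TAHRE 1.37-fold, so 2 of 4 names were higher, as were 50.8% of all names tested, and 2 were lower. Without the replicate number in the model, none of the 4 passed edgeR's quasi-likelihood test at an adjusted p of 0.05 (percent called among the 2142 names tested, 0.0934%), and DESeq2 called none of the 4 either. At an unadjusted p under 0.05 were HETA and TART_B1, as were 5.56% of all names tested.

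Same-numbered libraries of the 2 knockdowns deviated together from their group means, and with the replicate number as a block HETA rose and TART_B1 fell, in a fit that called 3.41% of all names, 1.31% higher and 2.1% lower. The pairing is not in the labels and was inferred from these same counts, so both calls depend on that inference. For HETA the log2 fold change was 1.04 (SE 0.374, 95% interval 0.23 to 1.85, edgeR adjusted p = 0.627) without the block and 1.08 (SE 0.314, interval 0.45 to 1.70, edgeR adjusted p = 0.0356) with it. The HETA groups did not overlap, as was so in this direction for 5.32% of all names. HETA was therefore higher in each of the 3 same-numbered pairs, as it would be under any pairing. For TART_B1 it was -1.24 (SE 0.420, interval -2.15 to -0.33, edgeR adjusted p = 0.538) without the block and -1.12 (SE 0.289, interval -1.69 to -0.55, edgeR adjusted p = 0.0122) with it. TART_B1 was lower in each pair, although w replicate 1, at 109.4 CPM, lay below Gcn5 replicates 2 and 3. How many of all names had the same direction in each pair was not counted.

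Both calls needed all 3 pairs. With the block and without pair 1, 2 or 3, HETA had log2 fold changes of 1.56, 0.96 and 0.70 with edgeR adjusted p of 0.166, 0.231 and 0.75. TART_B1 had -1.39, -0.86 and -1.10 with adjusted p of 0.166, 0.218 and 0.29. The direction was the same in each of the 15 alternative fits for both, with ranges of 0.70 to 1.56 for HETA and -1.58 to -0.86 for TART_B1. Leaving out w replicate 1, the control in which HETA was highest and TART_B1 lowest, gave 1.40 (edgeR adjusted p = 0.176) for HETA and -1.58 (0.079) for TART_B1 without the block.

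TART, the most abundant element, had a log2 fold change of -0.43 (SE 0.245, interval -0.96 to 0.10, edgeR adjusted p = 0.993 without the block, 0.398 with it). With the block the interval of TART was -0.86 to -0.007. All 3 of its Gcn5 values were below the w values, as was so in this direction for 5.18% of all names. TAHRE had 0.46 (SE 0.413, interval -0.44 to 1.35, edgeR adjusted p = 0.993 without the block, 0.693 with it), and its groups overlapped. For TAHRE the interval thus includes both no change and a change as large as that measured for HETA.

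SetDB1 F578A was compared with SetDB1 WT to ask how the RNAs differ when the methyltransferase carries the substitution. HETA and TAHRE were higher by the mean, as were 52.6% of all names, and TART and TART_B1 lower, with the groups overlapping for all 4 (groups without overlap in either direction, 11.1% of the 2395 names tested). None of the 4 passed the test, with the block or without it, where 0.0418% of names were called without the block and 0.292% with it. DESeq2 called none of the 4, and none had an unadjusted p under 0.05 without the block, against 5.39% of all names.

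The log2 fold change of HETA was 0.52 (SE 0.240, interval -0.04 to 1.08, edgeR adjusted p = 0.897), and that of TAHRE was 0.50 (SE 0.255, interval -0.10 to 1.09, edgeR adjusted p = 0.905). TART had -0.21 (SE 0.138, interval -0.54 to 0.11, edgeR adjusted p = 0.93) and TART_B1 -0.16 (SE 0.300, interval -0.85 to 0.54, edgeR adjusted p = 0.96). The 225 other repeats had a median of 0.28 in this comparison, with 150 of 189 tested above 0, so HETA and TAHRE lay near the bulk of these repeats and TART and TART_B1 below it. Among the log2 fold changes of those repeats, HETA stood at percentile 70.9, TAHRE at 68.8, TART_B1 at 11.1 and TART at 8.47. When these repeats were fitted alone, with library sizes from them, HETA came to 0.23 and TART to -0.52, the ends of their ranges over the alternatives, still with adjusted p over 0.05.

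Whether the Gcn5 effect differed from the F578A effect was tested as an interaction over all 12 libraries. None of the 4 passed (percent called among 2458 names, 0.0407%, and 0.163% with the block). The difference was -1.05 for TART_B1 (SE 0.523, interval -2.16 to 0.06, edgeR adjusted p = 0.935 without the block, 0.317 with it) and 0.49 for HETA (SE 0.469, interval -0.50 to 1.49, edgeR adjusted p = 1). It was -0.20 for TART and -0.04 for TAHRE, with intervals of -0.76 to 0.37 and -1.03 to 0.96. HETA alone was above 0, as were 49.3% of all names. A fall of TART_B1 particular to the Gcn5 knockdown was therefore not shown.

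The SetDB1 WT embryos and the w knockdown embryos are the controls of separate experiments, and they differ in genotype, driver and experiment at once, so none of these can be told apart. All 4 names were higher in WT by the fitted fold change, as were 52.9% of all names, and for HETA, TAHRE and TART the groups did not overlap. Here 41.5% of the 2257 names tested did not overlap, 21% in this direction, and 23.5% passed the test, 11.1% higher, so a difference is common among all repeats. TART rose 1.63-fold, with a log2 fold change of 0.71 (SE 0.174, interval 0.32 to 1.09, edgeR adjusted p = 0.0155). HETA had 0.92 (SE 0.339, interval 0.17 to 1.67, edgeR adjusted p = 0.0733), TAHRE 0.80 (SE 0.278, interval 0.19 to 1.42, edgeR adjusted p = 0.0593) and TART_B1 0.10 (SE 0.381, interval -0.74 to 0.94, edgeR adjusted p = 0.877). TART, HETA and TAHRE were at an unadjusted p under 0.05, as were 37.6% of all names.

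The call on TART depended on the fit. With the replicate block it was lost (0.70, edgeR adjusted p = 0.082), and in the fit with no block it was lost on leaving out w replicate 3 (0.61, edgeR adjusted p = 0.0757), WT replicate 2 (0.52, 0.133) or WT replicate 3 (0.72, 0.0931). Fitted among the 225 other repeats alone, TART came to 0.28 (edgeR adjusted p = 0.677). Those repeats had a median log2 fold change of 0.46 in the fit over all names, against 0.06 for all names, and 140 of 180 tested were above 0. HETA and TAHRE passed with DESeq2 (0.90, adjusted p = 0.0395, and 0.77, adjusted p = 0.0364), and HETA passed without w replicate 1 (1.25, edgeR adjusted p = 0.0158). Calls were common in both fits, with 668 of 2257 names called by DESeq2 and 514 of 2394 without w replicate 1.

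**Figure D3:**
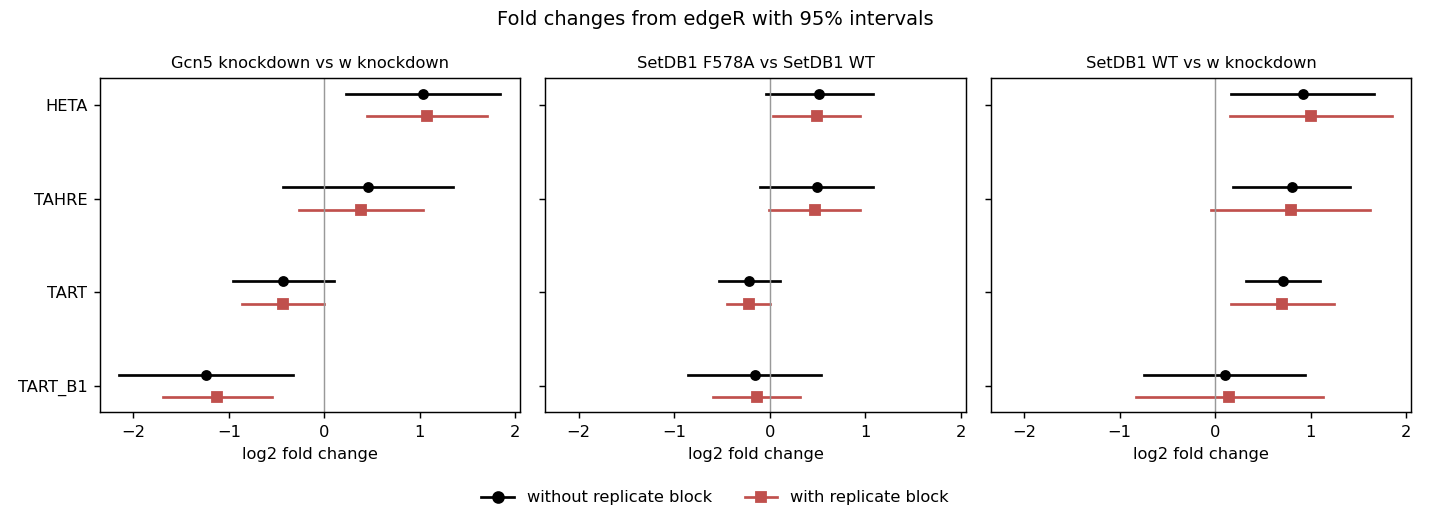
Log2 fold changes of the 4 names from edgeR with 95% intervals, without (circles) and with (squares) the replicate number as a block, in a panel for each comparison. In the Gcn5 panel HETA lies right of 0 and TART_B1 left of it in both fits, at 1.04 and 1.08 and at -1.24 and -1.12, and in the F578A panel the 4 intervals without the block include 0. With the block the F578A interval of HETA (0.04 to 0.95) and the Gcn5 interval of TART (-0.86 to -0.007) exclude 0. Their edgeR adjusted p were 0.512 and 0.398.

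The nearest relatives outside the telomere are the other LINE elements of the Jockey clade, to which HeT-A, TART and TAHRE belong by their sequence. A list of 23 such names, among them DOC, FW_DM and the G and BS elements, was in the tables, and 21 were tested. In the Gcn5 comparison 11 were higher and 10 lower with a median log2 fold change of 0.10, and none passed with or without the block. The medians of the 4 telomere names and of all names there were both 0.01. In the F578A comparison 18 were higher and 3 lower with a median of 0.30, against 0.17 for the telomere names, and DOC alone passed, with the block (log2 fold change 1.95, edgeR adjusted p = 0.0171, and 0.151 without). Between WT and w the median was 0.58 against 0.76 for the telomere names, and 4 of 21 passed, beside 23.5% of all names. These were FW_DM, G6_DM and BS2, higher by 1.46, 1.24 and 1.04, and G2_DM at -1.08, with edgeR adjusted p of 0.0051, 0.0311, 0.0398 and 0.0308, and with the block FW_DM alone passed (edgeR adjusted p = 0.0224).

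HETRP_DM, a satellite of subtelomeric DNA next to the retrotransposon arrays, was lower in CPM than each of the 4 in every library, but not per length. As CPM per kilobase its group means were 0.666 for Gcn5, 0.504 for w, 0.934 for F578A and 0.766 for WT, each above those of HETA and TAHRE. It had 18.4, 21.3 and 32.1 CPM in the Gcn5 libraries, 9.98, 23.4 and 21.0 in w, 35.0, 41.1 and 24.5 in F578A and 40.5, 15.3 and 26.8 in WT. Its groups overlapped in both experiments. Its log2 fold change was 0.38 for Gcn5 against w and 0.25 for F578A against WT, with edgeR adjusted p of 0.993 and 0.96. In w replicate 1, where HETA was highest among the controls, HETRP_DM was lowest.

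Across the 12 libraries the 4 names did not vary as a unit. The following correlations of log2 CPM are descriptions over libraries that share 4 groups and 2 experiments. HETA and TAHRE varied together (Pearson r = 0.772, Spearman rho = 0.888), and TAHRE and TART less so (0.573 and 0.608). After the group means were removed, r was 0.506 for HETA and TAHRE and 0.356 for TAHRE and TART. HETA and TART_B1 had an r of -0.319, and -0.613 after the group means were removed. TART and TART_B1 had 0.495 over all libraries and -0.455 within groups. Among the w libraries, replicate 1 had the most HETA and the least TART_B1.

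Among 193 other repeat names, those most like each element were also recorded. For HETA they were the DNA transposon POGO (r = 0.793, rho = 0.692), TAHRE and DOC5_DM (0.745 and 0.545). For TAHRE they were the DNA transposon HOBO (0.873 and 0.888), ROVER-I_DM (0.784 and 0.825) and FW_DM (0.777 and 0.797), and for TART they were HMSBEAGLE_I-int (0.869 and 0.909), DMCR1A (0.866 and 0.825) and SAR2_DM (0.819 and 0.727). For TART_B1 they were S_DM (0.930 and 0.930), ROO_LTR (0.930 and 0.902) and MICROPIA_I-int (0.898 and 0.902). Only for TART_B1 did all 3 stay above 0.9 within groups, at 0.916, 0.964 and 0.911. For the other elements the values within groups ran from -0.259 to 0.611. With HETA they were 0.611 for POGO and 0.506 for TAHRE, with TAHRE 0.536 for HOBO, and with TART 0.448 for HMSBEAGLE_I-int. The remaining names had 0.155 at most, so for those the likeness lay mostly in the differences between groups.

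The ChIP-seq lists give peaks by position and carry no repeat names, so they were read only for the last 20 kb at the telomeric end of the 6 arms X, 2L, 2R, 3L, 3R and 4 of the dm6 assembly. Whether these stretches hold copies of HETA, TART or TAHRE was not determined, and the values describe the ends and not the elements. Peaks of H3K9me3, the mark of heterochromatin, covered 36.1 and 37.8% of the 6 ends in the 2 libraries of the w knockdown and 47.9 and 61.1% in the Gcn5 knockdown. They covered 42.5 and 37.8% in SetDB1 WT and 19.2 and 20.1% in F578A. Over the whole arms the same lists covered 4.5, 4.35, 5.99, 7.0, 5.69, 5.9, 3.7 and 3.31%, in the same order, so the ends were richer in peaks than the arms in each. Depth differed as well, at 2.41 and 2.56 M fragments in w, 1.64 and 2.17 in Gcn5, 2.63 and 2.47 in WT and 1.46 and 1.43 in F578A, and its part in the coverage was not tested. With 2 libraries a group no test was made.

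The arms differed among themselves. At the end of 3L, H3K9me3 peaks covered 92.7 and 97.6% of the window in w, 53.8 and 95.1% in Gcn5 and 84.8 and 88.4% in WT, but 4.01 and 4.94% in F578A. At the end of 2L they covered 24.4 to 33.5% in each of the 8 lists of both experiments. At the end of arm 4 they covered 68.8 and 73.1% in the Gcn5 knockdown, against 9.85 and 13.8% in w, 11.2 and 11.5% in WT and 30.7 and 11.7% in F578A. At the end of 3R the w1118 lists of stages 4 to 6 had no H3K9me3 peak, while the other lists covered 16.7 to 33.8%. The w1118 lists for H3K9me3 hold a summit for each peak, which the other H3K9me3 lists do not, and name no settings, so their lengths were not compared with the others. In these lists H3K9me3 peaks covered 23.1, 19.3 and 31.1% of the 6 ends at stages 4, 5 and 6, and H3K9me2 peaks 17.6, 12.7 and 18.4%.

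GFP-SetDB1 peaks covered 3.81 and 9.99% of the ends in the w knockdown and 0.361 and 0.361% in the Gcn5 knockdown, with 5.37 and 6.05 M fragments against 1.63 and 2.08 M fragments. The whole arms had 0.348 and 0.653% in w and 0.0128 and 0.024% in Gcn5, so the coverage was lower over the whole arms as well. With a −log10 q of at least 5, both groups had 0% at the ends. In WT they covered 15.2 and 17.3% and in F578A 8.96 and 11.4%, with 8.93, 9.43, 8.08 and 7.69 M fragments and 2.03, 1.84, 1.22 and 1.36% of the whole arms. With that stricter limit the means were 13% in WT and 7.71% in F578A, against 9.08 and 4.75% for H3K9me3 peaks. With all deposited peaks the order was the other way, as H3K9me3 peaks covered 42.5 and 37.8% in WT and 19.2 and 20.1% in F578A. The H3K9me3 lists had fewer fragments, at 2.63 and 2.47 M in WT and 1.46 and 1.43 M in F578A, so the 2 antibodies were not compared further. H3K14ac peaks covered 3.98 and 3.12% of the ends in w and 0.405 and 3.46% in Gcn5. Over the whole arms they covered 1.14 and 0.382% in w and 0.0307 and 0.229% in Gcn5, less than at the ends in each list. With a −log10 q of at least 5, they covered 0.704 and 0% of the ends in w and 0% in both Gcn5 lists. The coverage of the ends thus came mostly from peaks below that limit. In w1118 embryos of stages 4, 5 and 6 all deposited H3K14ac peaks covered 0.4, 2.1 and 5.52% of the ends and 2.17, 7.61 and 19.0% of the whole arms. There, unlike in the knockdown lists with all deposited peaks, a smaller share of the ends than of the arms lay under H3K14ac peaks. The part of depth in these differences was not tested.

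**Figure D4:**
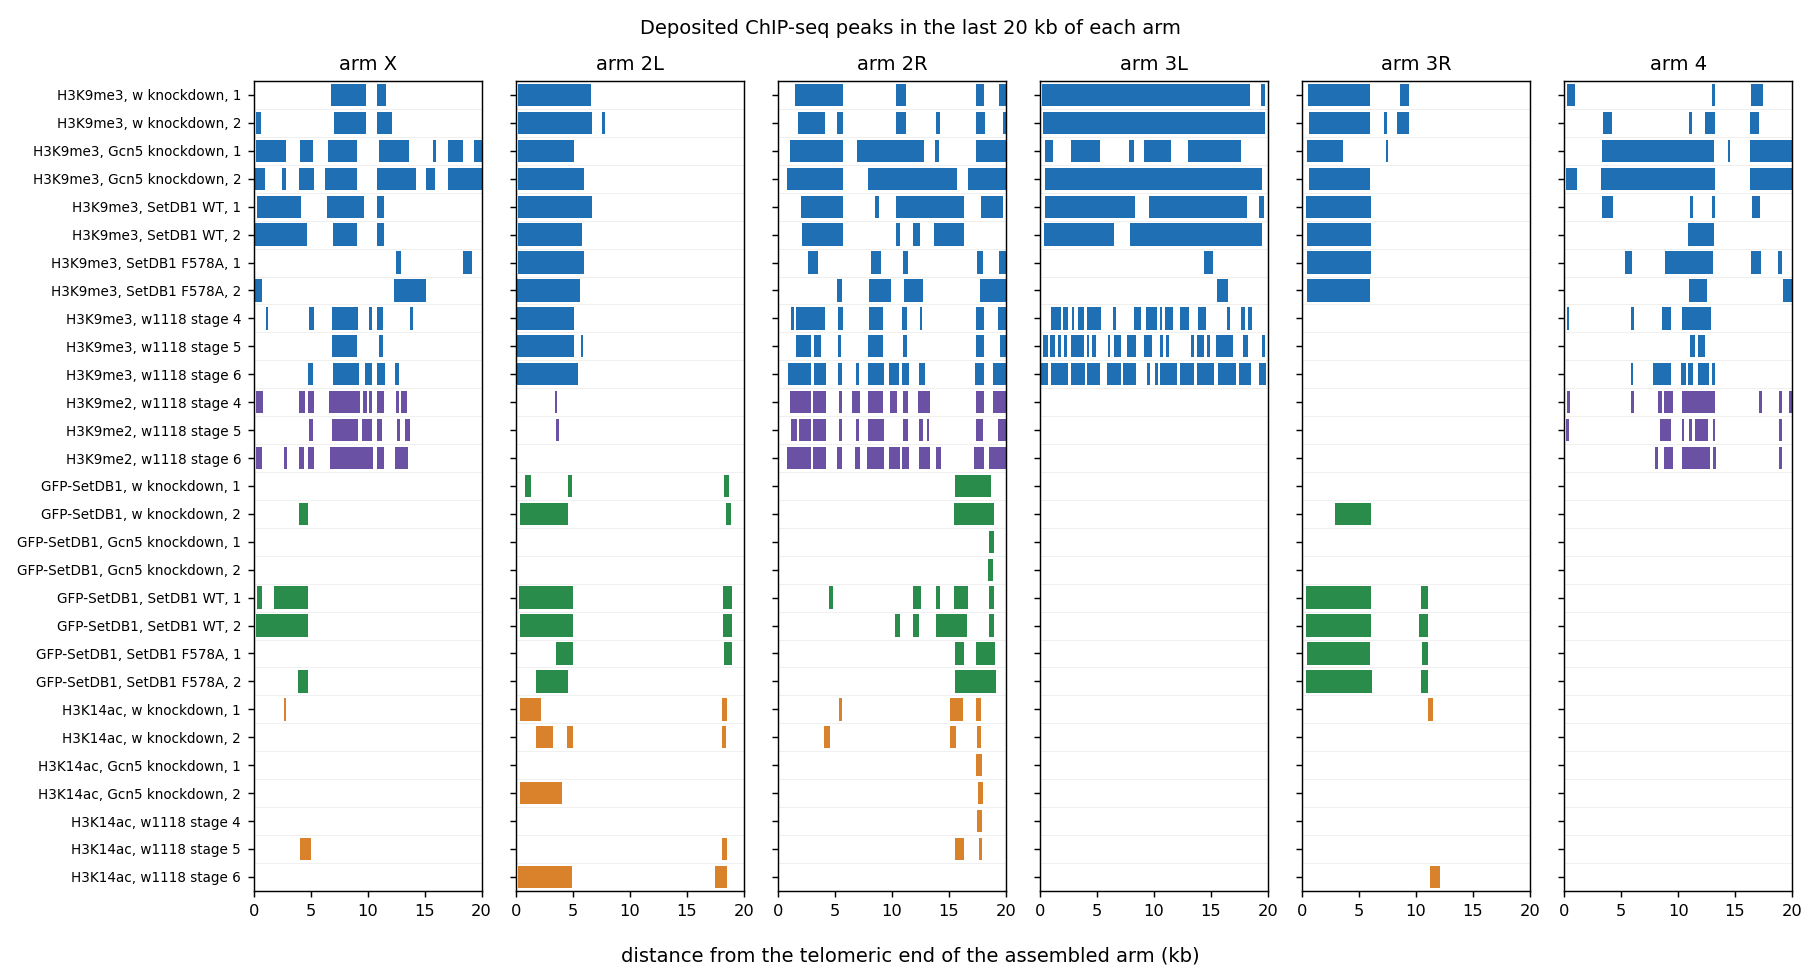
Deposited ChIP-seq peaks in the last 20 kb of each arm, 1 row for each peak list (antibody, group and replicate) and 1 panel for each arm, with the distance from the telomeric end in kb on the horizontal axis. H3K9me3 peaks fill most of the end of 3L in the w, Gcn5 and WT lists but 4.01 and 4.94% of it in F578A, and they cover 68.8 and 73.1% of the end of arm 4 in the Gcn5 knockdown.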

How the data were processed

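RNA was measured in 12 libraries of single stage 5 embryos, and the files give raw counts per repeat name as deposited by the authors, with all copies of a name summed. featureCounts 1.6.5 and the builds dm6 and BDGP6 are named per the submitters' processing notes. The treatment of multi-mapping reads, the use of strand and the repeat annotation are not given in the sources used here. HETA and TAHRE, which share related sequence, thus could have exchanged reads. Peak lists give position, a pileup signal, fold enrichment over input and −log10 p-value and q-value as deposited by the authors, and 20 lists were called in broad mode (MACS 2.2.6, cutoff 0.1), per the file headers. The 9 w1118 lists name no settings.

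The test was edgeR 4.0.16 under R 4.3.3 (TMM, filterByExpr, quasi-likelihood test, Benjamini-Hochberg adjustment over all names tested, threshold 0.05), after tests on simulated data. Only the groups compared entered a fit, and the interaction used all 12 libraries. CPM used TMM library sizes over 12 libraries, and correlations used log2 CPM with a prior count of 2. Alternatives were DESeq2 1.42.0, scaling to total counts, no filter on low counts, a fit of the 225 other repeats alone, the replicate number as a block, all 12 libraries with a shared spread and each library left out. Same-numbered Gcn5 and w libraries correlated at 0.608, 0.259 and 0.459 in their deviations across repeats, and other pairs at 0.14 at most. The numbers were therefore treated as pairs, although the meaning of a number is not in the labels. This pairing was inferred from the same counts to which the block was then fitted. In the other comparisons libraries of unlike number correlated as strongly, at 0.729 for F578A replicate 3 with WT replicate 2. For WT replicate 2 with w replicate 1, from separate experiments, the value was 0.507. Peak coverage was the part of the last 20 kb of an arm under a deposited peak. The members, the Jockey list and the tests were chosen with earlier results of these data known. Named beside the 4 elements were the 3 names most correlated with each, called members of the Jockey list and HETRP_DM.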

Additional observations from a re-analysis of the deposited data

How the results depend on the processing

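The counts of repeats called moved with the settings more than the values of the elements did. For Gcn5 against w, 2 repeats were called, 14 with DESeq2, 15 without a filter on low counts, 8 in the fit of the 225 other repeats alone, 8 with all 12 libraries and 73 with the replicate block, 1 to 13 with a library left out and 1, 38 and 18 with the block and a number left out. For F578A against WT, 1 was called, 29 with DESeq2, 30 without a filter, 11 among the other repeats alone, 3 with all 12 libraries and 7 with the block, 1 to 3 with a library left out and 1, 12 and 9 with the block and a number left out. For WT against w, 530 were called, 668 with DESeq2, 599 without a filter, 19 among the other repeats alone, 503 with all 12 libraries and 311 with the block. There were 271 to 514 with a library left out and 575, 298 and 69 with the block and a number left out. For the difference of effects, 1 was called, 6 with DESeq2, 8 without a filter, 8 among the other repeats alone and 4 with the block, 1 to 2 with a library left out and 3, 4 and 23 with the block and a number left out. The causes were not tested. The fits with the block and a replicate number left out were added after the data were seen.

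HETA stayed above 0 in each comparison and alternative run, and no call on any of the 4 elements changed sign. Values that were not called did so: TART_B1 ran from -0.45 to 0.12 for F578A against WT and from -0.62 to 0.68 for WT against w, and in the difference of effects TAHRE ran from -0.42 to 0.19 and TART from -0.38 to 0.06. Scaling to total counts changed no call on the 4 elements but moved the median of all names from 0.02 to 0.10 for F578A against WT and from -0.01 to -0.19 for the difference.

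Same-numbered F578A and WT libraries correlated at 0.692, -0.114 and -0.0443, and WT and w libraries at -0.521, -0.344 and -0.0799. A pairing by number was therefore not shown in these comparisons, although F578A and WT replicate 1 deviated together. With the replicate block TART lost its call between WT and w (0.70, edgeR adjusted p = 0.082). Blocked fits that left out numbers 1, 2 and 3 gave 0.73, 0.55 and 0.72 (0.045, 0.24 and 0.613). The block changed no call on the elements besides those of HETA and TART_B1 in the Gcn5 comparison and of TART here, while HETA between WT and w passed with the block and without number 1 (1.32, edgeR adjusted p = 0.00382). That last fit called 575 of 2297 names.

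At the arm ends the order of Gcn5 above w and of WT above F578A in H3K9me3 coverage held in a 50 kb window (34.5 and 41.9% against 20.3 and 20.6%, 23.4 and 21.7% against 13.6 and 13.8%) and with a −log10 q of at least 5 (group means of 30.2% against 8.78%, and 9.08% against 4.75%). HETA and TAHRE had 108 and 92 counts in their lowest libraries, which limits the precision of their values.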
